A study of Mus musculus with 75 samples.

Results

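The 50 genes described here encode the Wnt signalling pathway of the mouse: ligands, the proteins that release them, receptors, extracellular inhibitors, feedback inhibitors, the beta-catenin destruction complex and the TCF/LEF transcription factors. They were chosen by name, as pathway members and common readouts, and not by a cut on a measured value. Earlier results of these data were known at the time of the choice. All 50 were found among the 52535 entries of each of the tables of retinoic acid receptor knockouts and of receptor overexpression, and among the 52636 entries of the table of enhancer deletions. After the filter on low counts, 39 of the 50 were tested in the knockout table, 42 in the overexpression table and 48 in the enhancer table, of 16445, 16914 and 18768 genes tested.

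The study asked how the receptors of retinoic acid (RA), a vitamin A derivative that drives differentiation, and the enhancers that respond to it act in early differentiation of E14 cells, a mouse embryonic stem cell line. Cells had been kept with LIF, the MEK inhibitor PD0325901 and 3 µM CHIR99021, an inhibitor of the kinase GSK and so an activator of Wnt signalling. All 3 were withdrawn when 2 µM RA was added, and every RNA library was taken at 24 h, controls included, so no level before RA is available here. The knockout table holds 2 biological replicates each of unedited cells, written WT (RARX), of Rarα-KO, which targets the retinoic acid receptor alpha gene, of Rxrα-KO, which targets that of its partner, the retinoid X receptor alpha, and of RARX-DKO, which targets both. The overexpression table holds 2 each of V-OE, the control of that series, Rarα-OE and Rxrα-OE. The enhancer table holds 3 replicates each of unedited cells, written WT (Cyp26), and of the lines Cyp26-E1-KO and Cyp26-E2-KO, each without 1 of 2 Cyp26 enhancers. Vectors, promoters and clone numbers were not given in the sources used here. The columns of both enhancer mutants carry codes that match the labels only in part, so which column is E1 and which is E2 is unsure in every result on them below.

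Wnt proteins are lipid-modified by Porcn and carried to the cell surface by Wls. At the receiving cell they bind Frizzled receptors together with Lrp5 or Lrp6, which stops the destruction complex of Axin, Apc and GSK from degrading beta-catenin (Ctnnb1). Beta-catenin then joins TCF/LEF factors on target genes such as Axin2, while Ror receptors carry beta-catenin-independent signals. In mouse embryonic stem cells the pathway is known for holding the naive state, largely by relieving repression by Tcf7l1, and at gastrulation for mesoderm and posterior identity.

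Library totals were 7408691 to 13052102 counts in the knockout table, 7835519 to 11453063 in the overexpression table and 28397794 to 33601996 in the enhancer table, and levels below are in CPM, the usual scaling of a gene's read counts to library size, with library sizes adjusted by TMM. The targeted genes moved with the labels. Rara was at 5.35 and 4.37 CPM in Rarα-KO beside 100.1 and 108.7 in WT, Rxra at 18.4 and 16.1 in Rxrα-KO beside 38.2 and 46.0, and overexpression brought Rara from 51.6 and 52.4 to 104.5 and 111.0 and Rxra from 45.7 and 42.9 to 202.1 and 204.3. In RARX-DKO Rxra still read 13.6 and 27.6 CPM. All 10 naive pluripotency markers had counts in every group. In the enhancer table replicate 2 of Cyp26-E1-KO stood apart: it differed from its 2 fellows by 45.8 and 51.4 times the counting variance, against 5.58 to 9.64 times in the other pairs of replicates. In RARX-DKO replicate 2, genes of chromosome 8 lay 0.35 above their mean over the table (median log2 deviation), against -0.08 to 0.0083 in the other 7 libraries. Chromosome 6, which holds Wnt5b, Wnt7a, Lrp6 and Tcf7l1, was at 0.196 in that library and at -0.0522 to 0.0427 in the other 7. Chromosome 16, which holds no member, was at 0.205 in Rxrα-KO replicate 2. In the enhancer table chromosome 6 was at 0.0732 to 0.0839 in Cyp26-E2-KO and at -0.0598 to -0.0185 in the other groups.

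The same 4 genes were among the leading 5 of the controls in all tables when levels were scaled by exon length. Ctnnb1 ranked first of the 50, at 151.9 ± 12.4 CPM per kb in WT (RARX) (SD, n = 2), 143.8 ± 2.84 in V-OE (n = 2) and 123.1 ± 2.38 in WT (Cyp26) (n = 3). Porcn, the acyltransferase that modifies all Wnt ligands, ranked second in each, at 75.7 ± 4.74, 97.6 ± 1.70 and 54.2 ± 4.42 CPM per kb. Tcf7l1 and Fzd7 ranked between 3 and 5. At the other end Fzd6 had 0 counts in all 23 libraries, which allows up to 3 counts per library, and Lgr5 had 0 to 12 counts per library and was tested in no table. Of Fzd6 exon bases 3.15% overlap another annotated gene.

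Ligand mRNA was scarce beside receptor mRNA. The 12 ligands together summed to 10.1 to 11.1 CPM per kb in the 7 control libraries, while the 10 Frizzled receptors summed to 45.7 to 83.1. Wnt8a took the largest share of the ligand sum in all 7, from 29.1% to 60.5%, and Fzd7 the largest share of the Frizzled sum, from 47.3% to 60.8%. The ligand sum was 27.2 and 27.4 CPM per kb in Rxrα-OE and 15.5 and 16.7 in Rarα-OE, beside 10.2 and 10.4 in V-OE, so the groups did not overlap. The sum over the secreted inhibitors was 48.1 to 49.2 in WT (Cyp26), 23.8 to 28.0 in Cyp26-E1-KO and 29.9 to 32.4 in Cyp26-E2-KO. The tables were scaled separately, so levels are compared only within a table.

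**Figure D1:**
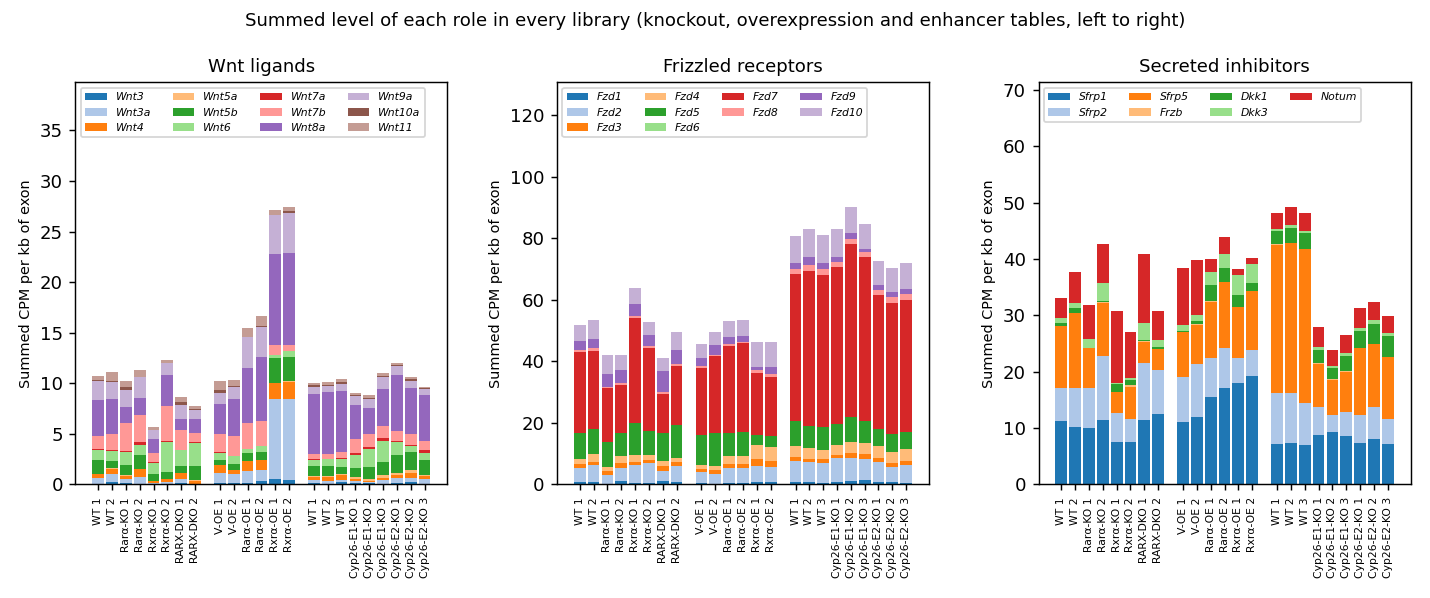
Summed level of the Wnt ligands, Frizzled receptors and secreted inhibitors (CPM per kb of exon, stacked by gene) in each of the 23 libraries, with the knockout, overexpression and enhancer tables set apart by gaps. The ligand bars are tallest in both Rxrα-OE libraries (27.2 and 27.4), and the inhibitor bars of both enhancer deletions are shorter than those of their WT.

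Across the 7 comparisons of a mutant or overexpressing line with its control, 38 of the 50 genes passed an adjusted p of 0.05 at least once (edgeR's quasi-likelihood test with Benjamini-Hochberg adjustment over all genes tested), 10 were tested and passed in none, and 2, Fzd6 and Lgr5, were tested nowhere. Thus 79.2% of the 48 members tested in any table passed at least once, beside 61.3% of all 20587 genes tested in any. Sfrp5, Axin2, Porcn and Ror2 passed in 4 or more of the 7, and the share of all genes that did so was not counted. Sfrp5, a secreted protein that binds Wnt ligands, passed in 6, falling in 4 and rising in 2. Axin2, the scaffold whose transcription is a standard readout of beta-catenin activity, passed in 4 and rose in all of them. Porcn also passed in 4 and fell in all. Ror2 passed in 4, rising in 2 and falling in 2. The comparisons within a table share their control libraries, so calls in them are not independent of each other.

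**Figure D2:**
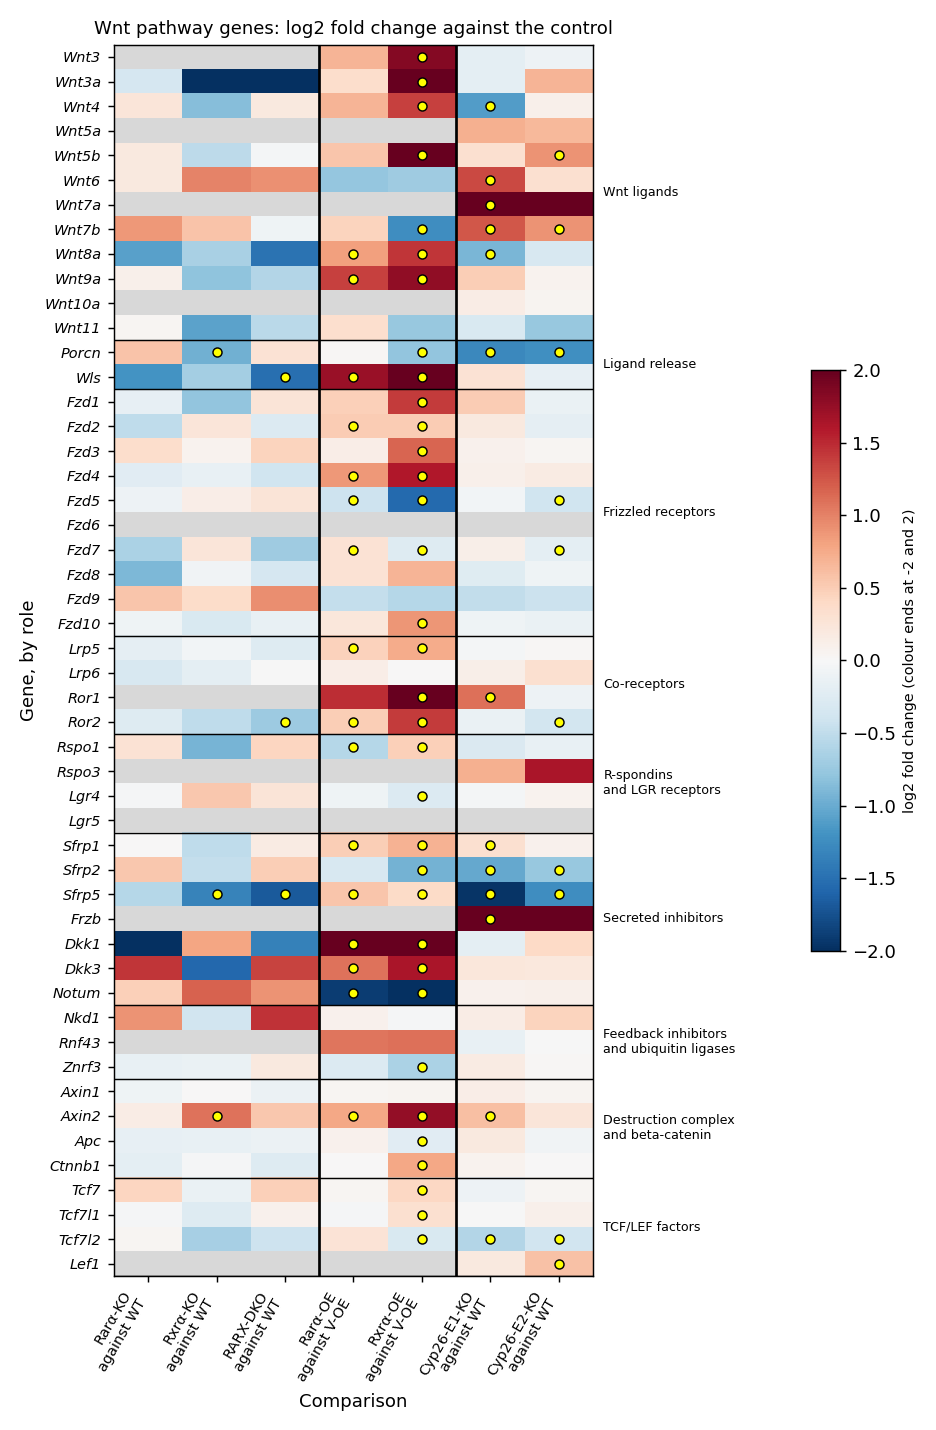
Log2 fold change (colour, ends at -2 and 2) of the 50 Wnt pathway genes in rows, by role, in the 7 comparisons with a control in columns. Yellow dots mark an adjusted p below 0.05 and grey cells genes that were not tested; the Rarα-KO column holds no dot and that of Rxrα-OE holds 34.

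Promoter sequence is shown for 3 genes: Sfrp5, which was called most often, Axin2, the usual readout of beta-catenin, and Dkk1, which differed between the single knockouts and carries TCF/LEF letters. Each is the stretch of 250 bases before the gene's start in RefSeq (GRCm38.p6), read 5′ to 3′ along the gene's strand. Capitals mark a TCF/LEF word or a hexamer of the kind that retinoic acid receptors bind, on either strand. The TCF/LEF words searched were CTTTGAA in its first form, CTTTGAT in another, CTTTGTA in another and CTTTGTT in the last. The receptor hexamers searched were AGGTCA in its first form, AGTTCA in another, GGGTCA in another and GGTTCA in the last. The Sfrp5 stretch lies at chr19:42202253-42202502 on the minus strand, that of Axin2 at chr11:108920099-108920348 on the plus strand, and that of Dkk1 at chr19:30549497-30549746 on the minus strand.
Sfrp5: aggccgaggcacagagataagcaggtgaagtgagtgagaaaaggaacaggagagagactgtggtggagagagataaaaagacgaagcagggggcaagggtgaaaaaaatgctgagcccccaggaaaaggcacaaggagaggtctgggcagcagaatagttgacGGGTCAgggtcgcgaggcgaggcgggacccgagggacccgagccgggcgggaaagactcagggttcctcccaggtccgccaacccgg
Axin2: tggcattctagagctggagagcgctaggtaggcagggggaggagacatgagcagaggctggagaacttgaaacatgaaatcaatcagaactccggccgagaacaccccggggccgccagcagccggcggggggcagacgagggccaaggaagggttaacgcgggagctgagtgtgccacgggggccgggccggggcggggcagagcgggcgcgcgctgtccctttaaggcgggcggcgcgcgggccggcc
Dkk1: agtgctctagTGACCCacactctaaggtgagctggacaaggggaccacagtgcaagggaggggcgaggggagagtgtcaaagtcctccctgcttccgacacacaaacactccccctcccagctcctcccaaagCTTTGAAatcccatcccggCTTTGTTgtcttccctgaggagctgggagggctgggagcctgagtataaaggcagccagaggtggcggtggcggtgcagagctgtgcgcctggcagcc
Sfrp5 holds 1 receptor hexamer, Axin2 neither kind of letters, and Dkk1 a pair of TCF/LEF words and 1 receptor hexamer. The GENCODE start of Dkk1 lies 169 bases upstream of the RefSeq start, so by that annotation both of its TCF/LEF words lie inside the gene. RefSeq promoters were matched for 31 of the 50 genes, with 41 windows. A TCF/LEF word lay in 14.6% of these windows and in 14.8% of all 32851 windows of that length, and a receptor hexamer in 41.5% and 38.6%. The members with a TCF/LEF word were Wnt5b, Wnt11, Fzd7, Dkk1, Tcf7l2 and Lef1. Direct repeats of the receptor hexamer with a spacing of 1, 2 or 5 bases were in none of the 41, and in 0.164%, 0.174% and 0.0883% of all windows. A match is a description of the letters, and its absence says nothing of binding.

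Few Wnt genes passed in the receptor knockouts. In Rarα-KO against WT none of the 39 tested members passed, where 0.645% of all genes did. DESeq2 called 2 members and 257 of all genes. Unadjusted p was under 0.05 for 9 members. How many of all genes had such a p was not counted, here or for the unadjusted values below. In Rxrα-KO 3 of 39 passed (2.47% of all genes), with Axin2 higher (1.28% of all genes were) and Porcn and Sfrp5 lower (1.2% were). In RARX-DKO 3 of 39 passed (2.24% of all genes), none higher (1.05% of all genes were) and Wls, Ror2 and Sfrp5 lower (1.19% were). The median log2 fold change of the members was -0.026, -0.20 and -0.035 in these comparisons, beside -0.00038, -0.0064 and 0.0084 over all genes tested. Leaving out either WT library, which left 1 in that group, ended all of the 6 calls. Calls over all genes became far fewer as well, and the 6 log2 fold changes kept their direction. The calls in Rxrα-KO also ended without its replicate 2 (Porcn and Axin2) or 1 (Sfrp5), and those on Wls and Ror2 without RARX-DKO replicate 1 (adjusted p of 0.053 and 0.0502).

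Porcn differed between the single knockouts more than any other member by adjusted p. It stood at 217 and 237 CPM in WT, 352 and 323 in Rarα-KO, 136 and 97.3 in Rxrα-KO and 271 and 282 in RARX-DKO. Both Rxrα-KO libraries were thus the lowest and both Rarα-KO libraries the highest, and no groups overlapped. The fall in Rxrα-KO against WT was 0.96 ± 0.16 on the log2 scale (SE; edgeR, adjusted p = 0.0085), and the value in Rarα-KO against WT was 0.57 ± 0.16 (adjusted p = 0.14). The direct difference of Rxrα-KO from Rarα-KO was -1.53 ± 0.16 (edgeR, adjusted p = 0.00031), and it passed with each of the 8 libraries left out in turn. RARX-DKO lay 1.24 ± 0.16 above Rxrα-KO (edgeR, adjusted p = 0.0020), also with each library left out, but at an adjusted p of 0.051 when these groups alone were fitted.

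Wls, the carrier of Wnt ligands to the surface, was at 19.4 and 17.7 CPM in WT, 6.63 and 9.61 in Rarα-KO, 11.5 and 11.8 in Rxrα-KO and 6.25 and 6.80 in RARX-DKO. All knockout libraries lay below both WT libraries. The fall in RARX-DKO was 1.51 ± 0.27 on the log2 scale (edgeR, adjusted p = 0.011). The value in Rarα-KO was -1.19 ± 0.26 (edgeR, adjusted p = 0.059) and that in Rxrα-KO -0.67 ± 0.25 (adjusted p = 0.20). Ligands themselves gave no call against WT in the knockouts: of 8 tested, the largest values were -2.33 ± 0.84 in Rxrα-KO and -2.01 ± 0.79 in RARX-DKO for Wnt3a (edgeR, adjusted p = 0.18 and 0.25), at 1.57 and 2.38 CPM in WT.

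Among receptors, Ror2, a receptor of beta-catenin-independent signals, fell from 45.9 ± 4.23 CPM in WT to 27.8 ± 4.35 in RARX-DKO (SD, n = 2 each; log2 fold change -0.72 ± 0.17 (SE), edgeR, adjusted p = 0.047). This call was lost with library totals in place of TMM (adjusted p = 0.055), with a replicate block (0.076), with only the groups compared (0.086) and without any of 6 libraries (up to 0.401). Fzd7 was at 117 ± 3.15 CPM in WT, 75.6 ± 4.82 in Rarα-KO, 138 ± 23.3 in Rxrα-KO and 71.7 ± 21.2 in RARX-DKO. No call against WT resulted (edgeR, adjusted p of 0.18, 0.58 and 0.075), while the single knockouts differed from each other by 0.87 ± 0.19 on the log2 scale, Rxrα-KO being higher (edgeR, adjusted p = 0.020). RARX-DKO lay 0.95 ± 0.19 below Rxrα-KO, a log2 fold change of -0.95 (edgeR, adjusted p = 0.018).

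Of the secreted inhibitors Sfrp5 was at 20.9 and 25.2 CPM in WT, 13.3 and 17.8 in Rarα-KO, 7.16 and 11.1 in Rxrα-KO and 7.27 and 7.07 in RARX-DKO. All knockout libraries were below both WT libraries, and those of Rxrα-KO and RARX-DKO were the lowest. Its log2 fold change was -1.34 ± 0.27 in Rxrα-KO (edgeR, adjusted p = 0.020) and -1.68 ± 0.27 in RARX-DKO (adjusted p = 0.0074), and -0.57 ± 0.26 in Rarα-KO (adjusted p = 0.44).

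Of the other secreted inhibitors, Dkk1, Dkk3 and Sfrp2 passed between the single knockouts and not against WT. For each of them the libraries of neither single knockout overlapped those of WT. Dkk1, which blocks the Lrp5 and Lrp6 co-receptors, was at 1.01 and 2.15 CPM in WT, 0.321 and 0.437 in Rarα-KO, 3.25 and 2.29 in Rxrα-KO and 0.568 and 0.680 in RARX-DKO. Dkk3, a divergent member of that family, showed the reverse order, at 3.04 and 2.77 CPM in WT, 5.14 and 10.5 in Rarα-KO, 0.781 and 1.14 in Rxrα-KO and 10.5 and 4.35 in RARX-DKO. Rxrα-KO against Rarα-KO gave 2.83 ± 0.64 for Dkk1 (edgeR, adjusted p = 0.023) and -3.0 ± 0.55 for Dkk3 (adjusted p = 0.0091) on the log2 scale. Sfrp2 was at 12.6 and 14.9 CPM in WT, 15.5 and 24.6 in Rarα-KO, 11.2 and 8.64 in Rxrα-KO and 21.6 and 17.1 in RARX-DKO, and was 1.01 ± 0.27 lower on the log2 scale in Rxrα-KO than in Rarα-KO, a value of -1.01 (edgeR, adjusted p = 0.048). In all, 6 of 39 members passed in Rxrα-KO against Rarα-KO, 3 higher and 3 lower, where 5.38% of all genes did (2.19% higher and 3.19% lower). The calls on Dkk1, Sfrp2, Fzd7 and Axin2 each ended without any 1 of 4 or 5 of the 8 libraries, at adjusted p up to 0.157, 0.421, 0.187 and 0.246, and that on Dkk3 without Rarα-KO replicate 2 or Rxrα-KO replicate 1 (adjusted p = 0.096 and 0.056).

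In RARX-DKO against Rxrα-KO 5 of 39 members passed, 4 higher and 1 lower, against 3.5% of all genes (2.01% higher and 1.48% lower): Porcn and Fzd7, as given, Dkk3 (log2 fold change 2.94 ± 0.55, edgeR, adjusted p = 0.013), Sfrp1 and Nkd1, an inducible inhibitor of the relay protein Dishevelled. Sfrp1 was at 32.9 ± 0.080 CPM in Rxrα-KO and 52.3 ± 2.95 in RARX-DKO (SD, n = 2 each). Nkd1 was at 2.12 and 3.07 CPM in WT, 3.10 and 6.66 in Rarα-KO, 1.69 and 2.29 in Rxrα-KO and 6.59 and 7.75 in RARX-DKO. Both Sfrp1 and Nkd1 lie on chromosome 8, where the genes within 10 Mb had median log2 fold changes of 0.25 and 0.21 in the same comparison. Without RARX-DKO replicate 2 the adjusted p was 0.074 for Sfrp1 and 0.073 for Nkd1 (edgeR), and their log2 fold changes were 0.62 and 1.73, beside 0.67 and 1.84 with it. Sfrp1 and Nkd1 were also lost without 7 and 5 other libraries (adjusted p up to 0.124 and 0.145), and the calls on Fzd7 and Dkk3 without any of 4 and 3 libraries (up to 0.109 and 0.098). No call of the 5 remained when only these groups were fitted.

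Axin2 was the only member called higher against WT in the 3 knockouts. Its levels were 11.9 and 14.0 CPM in WT, 15.1 and 13.6 in Rarα-KO, 24.9 and 30.2 in Rxrα-KO and 15.7 and 21.9 in RARX-DKO. Both Rxrα-KO libraries lay above all others. The rise in Rxrα-KO was 1.09 ± 0.23 on the log2 scale (edgeR, adjusted p = 0.025) against WT and 0.94 ± 0.23 against Rarα-KO (adjusted p = 0.033). Ctnnb1 itself was at 743 and 834 CPM in WT and between 654 and 826 in the 6 knockout libraries, with adjusted p of 0.40 or more, and Tcf7l1 was at 150.5 and 164.3 in WT and between 119.7 and 184.1.

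None of the 39 members passed in RARX-DKO against Rarα-KO (edgeR; 0.0122% of all genes did), 3 had an unadjusted p under 0.05, and Sfrp5 had the smallest, with a log2 fold change of -1.11 ± 0.28. The test of whether the double knockout differed from both single effects added together gave 0 calls (edgeR; 0% of all genes), with 4 members at an unadjusted p under 0.05: Porcn, Rspo1, Sfrp1 and Axin2. DESeq2 called 0 members in either, beside 19 and 40 of all genes. Without the filter on low counts Sfrp5 was called lower in RARX-DKO than in Rarα-KO (adjusted p = 0.0466), and the libraries of these groups did not overlap for Sfrp5 or Porcn.

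Cell type markers moved in the same libraries. The summed level of 10 extraembryonic endoderm markers was 356 to 397 CPM in WT, 222 to 275 in Rarα-KO, 495 to 523 in Rxrα-KO and 194 to 217 in RARX-DKO, with none at 0. The 10 naive markers summed to 3453 to 3458 CPM in WT and to 4032 to 5242 in the knockouts. In Rxrα-KO members of this list lay on both sides of WT: Pou5f1 (1816 to 1885 CPM beside 1441 to 1545), Zfp42 and Esrrb above it, and Nanog (325 to 351 beside 412 to 469), Klf4 and Tfcp2l1 below it. Neuroectoderm markers summed to 46.6 to 52.7 CPM in WT, 62.4 to 68.3 in Rarα-KO, 49.2 to 73.8 in Rxrα-KO and 70.9 to 101.3 in RARX-DKO, with Neurog2 at 0 in all groups but Rarα-KO. Their part in the Wnt results was not tested. In bulk libraries fewer cells of a type and less RNA per cell cannot be told apart.

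**Figure D3:**
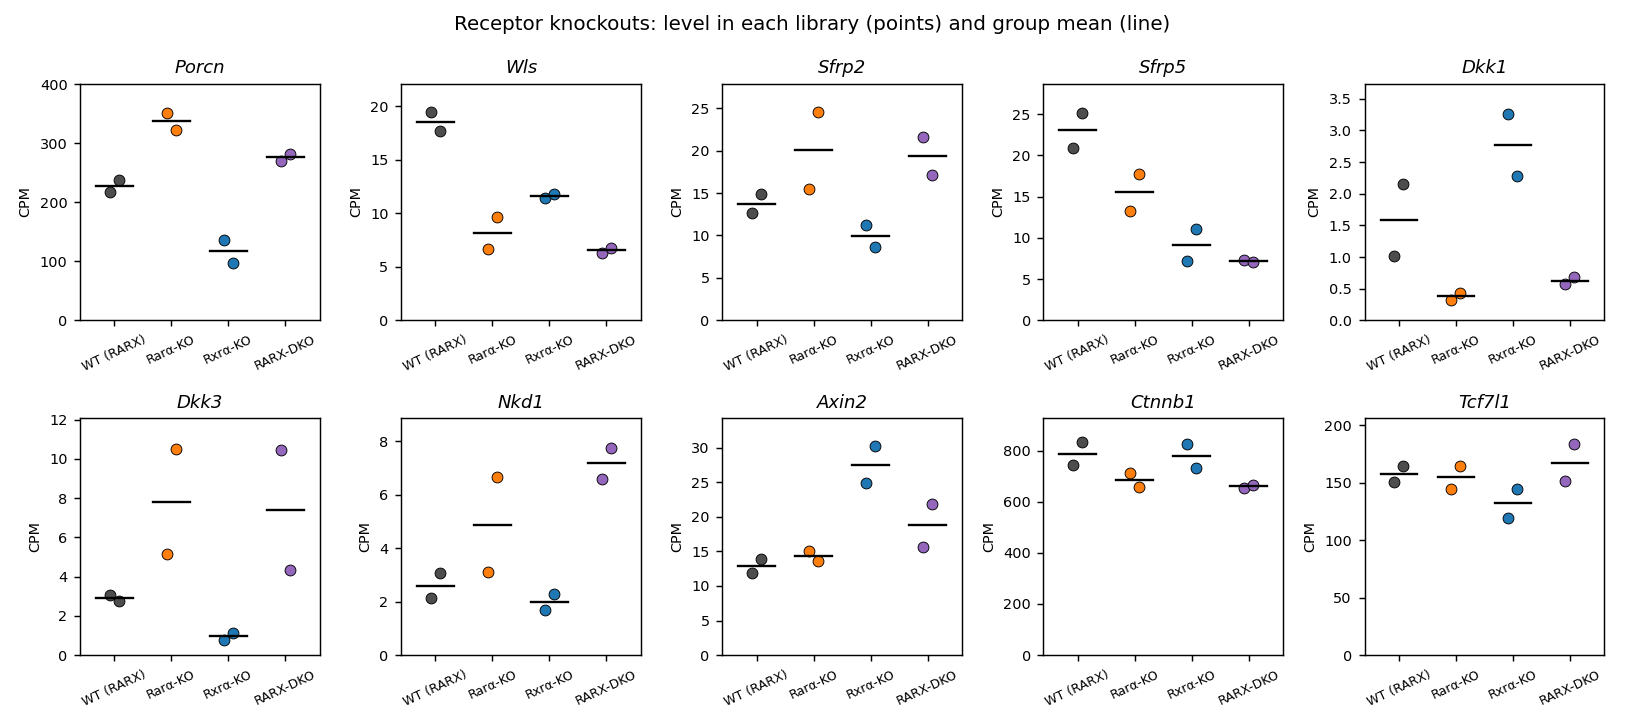
CPM of 10 Wnt pathway genes in the 2 libraries (points) and mean (line) of each of the 4 groups of the knockout table. Porcn is lowest and Axin2 highest in Rxrα-KO, Sfrp5 and Wls lie below WT in all 3 knockouts, and Dkk1 and Dkk3 are ordered oppositely in the single knockouts.

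Under overexpression 16 of 42 tested members passed in Rarα-OE and 34 in Rxrα-OE, in a table whose replicates differed by 1.89 to 2.27 times the counting variance, beside 8 to 14.2 times in the knockout table. In Rarα-OE against V-OE 13 of 42 tested members rose and 3 fell, where 28.6% of all genes passed (14.7% higher and 13.9% lower). In Rxrα-OE 24 rose and 10 fell, where 60.2% of all genes passed (30.9% higher and 29.3% lower). Between Rxrα-OE and Rarα-OE 29 of 42 differed, 19 higher and 10 lower in Rxrα-OE, where 47.2% of all genes did (23.8% higher and 23.4% lower). The median log2 fold change of the members was 0.31 in Rarα-OE and 0.59 in Rxrα-OE, beside 0.0032 and 0.0041 over all genes tested. Of the calls, 13 of 16 in Rarα-OE, 25 of 34 in Rxrα-OE and 22 of 29 between them remained with each library left out and under each other setting.

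Of 9 ligands tested, 2 rose in Rarα-OE, and 6 rose and 1 fell in Rxrα-OE, which is 22.2% and 77.8% called beside 28.6% and 60.2% of all genes. Wnt3a, a canonical ligand of the primitive streak, was at 2.66 and 2.45 CPM in V-OE, 3.42 and 3.08 in Rarα-OE and 21.9 and 22.3 in Rxrα-OE. The Rxrα-OE libraries stood apart from the other 4, with a log2 fold change of 3.11 ± 0.21 against V-OE (edgeR, adjusted p = 2.5e-19) and 2.76 ± 0.20 against Rarα-OE (adjusted p = 1.3e-17). Its relative Wnt3 was at 0.483 and 0.306 CPM in V-OE, 0.301 and 1.03 in Rarα-OE and 1.62 and 1.27 in Rxrα-OE, a rise of 1.84 ± 0.66 on the log2 scale (edgeR, adjusted p = 0.014) that was not called by DESeq2 (adjusted p = 0.106), without V-OE replicate 2 (0.142) or without Rxrα-OE replicate 1 (0.107).

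Wnt5b, usually placed among the beta-catenin-independent ligands, was at 1.33 and 1.43 CPM in V-OE, 2.01 and 2.05 in Rarα-OE and 6.59 and 6.26 in Rxrα-OE (log2 fold change 2.204 ± 0.33 in Rxrα-OE, edgeR, adjusted p = 8.4e-08). Wnt9a was at 3.74 and 3.88 CPM in V-OE, 9.95 and 9.74 in Rarα-OE and 12.7 and 13.3 in Rxrα-OE. It rose in both lines, by 1.37 ± 0.22 in Rarα-OE and 1.77 ± 0.21 in Rxrα-OE on the log2 scale (edgeR, adjusted p = 1.1e-06 and 9.8e-11). Wnt8a also rose in both (0.81 ± 0.20 and 1.43 ± 0.18) and Wnt4 in Rxrα-OE (1.36 ± 0.28). Wnt7b went the other way, from 9.13 ± 0.79 CPM in V-OE to 3.98 ± 1.57 in Rxrα-OE (SD, n = 2 each; log2 fold change -1.25 ± 0.23 (SE), edgeR, adjusted p = 4.6e-06), and it was at 12.4 ± 0.18 in Rarα-OE. Wnt11 was called only between the lines, at 1.90 CPM in Rxrα-OE and 4.02 in Rarα-OE (means of 2; log2 difference -1.096 ± 0.35 (SE), edgeR, adjusted p = 0.0073), a call lost with DESeq2 and without Rxrα-OE replicate 2 (0.114).

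The release proteins moved apart. Wls was at 7.97 and 8.77 CPM in V-OE, 28.3 and 27.04 in Rarα-OE and 51.1 and 49.5 in Rxrα-OE, so that the groups lay in steps without overlap. Its rises were 1.72 ± 0.13 and 2.58 ± 0.12 on the log2 scale (edgeR, adjusted p = 6.0e-16 and 9.8e-26). Porcn was at 296 and 289 CPM in V-OE, 297 and 298 in Rarα-OE and 171 and 168 in Rxrα-OE. Only the Rxrα-OE libraries were lower, with a fall of 0.79 ± 0.047 on the log2 scale (edgeR, adjusted p = 1.5e-21), and the value in Rarα-OE was 0.024 ± 0.045 (adjusted p = 0.74).

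Among the 9 Frizzled receptors tested, 3 rose and 1 fell in Rarα-OE, and 5 rose and 2 fell in Rxrα-OE, which is 44.4% and 77.8% called beside the same shares of all genes, 28.6% and 60.2%. Fzd4 rose in both, from 9.95 ± 0.92 CPM in V-OE to 18.4 ± 0.51 and 30.5 ± 1.04 (SD, n = 2 each), as did Fzd2, from 12.9 ± 1.3 to 18.2 ± 0.23 and 18.2 ± 1.38. Fzd1, Fzd3 and Fzd10 rose in Rxrα-OE, by 1.40 ± 0.39, 1.16 ± 0.14 and 0.88 ± 0.13 on the log2 scale. Fzd5 fell in both, from 69.5 ± 4.84 CPM to 52.4 ± 0.99 and 23.7 ± 1.22 (log2 fold change -0.41 ± 0.082 and -1.55 ± 0.089 (SE), edgeR, adjusted p = 6.4e-05 and 6.3e-22). Fzd7, the most abundant of them per kb, rose in Rarα-OE to 130 ± 1.95 CPM and fell in Rxrα-OE to 89.1 ± 3.86, from 107 ± 10.02 in V-OE. Without V-OE replicate 2 the fall of Fzd7 and the rise of Fzd2 in Rxrα-OE were not called (adjusted p = 0.062 and 0.063), nor was that of Fzd2 in Rarα-OE (0.107), and Fzd1 was not called without Rxrα-OE replicate 2 (0.053). The summed Frizzled level per kb was 45.7 and 49.4 in V-OE, 53.0 and 53.5 in Rarα-OE and 46.3 and 46.3 in Rxrα-OE, so that in Rxrα-OE it overlapped the control.

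Of the co-receptors and Ror receptors, Lrp5 and Ror2 rose in both lines and Ror1 in Rxrα-OE. Ror1 was at 0.725 and 0 CPM in V-OE (6 and 0 counts), 1.11 and 0.769 in Rarα-OE and 5.21 and 4.14 in Rxrα-OE, a ratio of summed counts of 13.8 in Rxrα-OE with an exact 95% counting interval of 6.13 to 38.7. Ror2 rose from 33.2 ± 0.53 CPM to 46.6 ± 0.24 in Rarα-OE and 87.4 ± 6.11 in Rxrα-OE (SD, n = 2 each), and Lrp5 from 51.8 ± 2.202 to 71.2 ± 3.66 and 86.2 ± 0.73. Lrp6, the related co-receptor, was at 83.3 ± 0.18, 91.0 ± 0.69 and 83.9 ± 3.10 and was called in neither line. Rspo1, which enhances Wnt signals through Lgr4 and its kin, fell in Rarα-OE (-0.57 ± 0.21) and rose in Rxrα-OE (0.48 ± 0.19), and Lgr4 fell in Rxrα-OE (-0.28 ± 0.11; edgeR, adjusted p = 0.039, 0.025 and 0.0245). All 3 of these calls were lost with DESeq2 and when any of 5, 3 and 2 libraries was left out, at adjusted p up to 0.185, 0.171 and 0.348.

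The secreted inhibitors split. Notum, an enzyme that strips the lipid from Wnt ligands, was at 24.3 and 23.4 CPM in V-OE, 5.63 and 7.30 in Rarα-OE and 2.43 and 2.37 in Rxrα-OE. The groups did not overlap, and the log2 fold changes were -1.89 ± 0.18 and -3.31 ± 0.20 (edgeR, adjusted p = 6.7e-13 and 1.3e-20). Of Notum exon bases 38.1% overlap exons of other annotated genes, Notumos among them, and whether the counting used strand is not given in the sources used here, so those reads cannot be told apart.

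Dkk1 was at 0.362 and 1.22 CPM in V-OE, 6.73 and 5.77 in Rarα-OE and 5.21 and 3.38 in Rxrα-OE. It rose in both lines, by 2.91 ± 0.39 and 2.33 ± 0.41 on the log2 scale (edgeR, adjusted p = 2.5e-08 and 2.2e-06), and the difference between the lines did not pass (-0.58 ± 0.29, adjusted p = 0.096). Dkk3 and Sfrp1 also rose in both: Dkk3 from 3.81 ± 0.092 CPM to 8.15 ± 0.44 and 11.9 ± 0.48, and Sfrp1 from 50.2 ± 2.77 to 71.2 ± 5.10 and 81.6 ± 3.95 (SD, n = 2 each). Sfrp5 rose by 0.55 ± 0.15 and 0.39 ± 0.15 on the log2 scale (edgeR, adjusted p = 0.0029 and 0.018), calls that were not made by DESeq2 (0.055 and 0.123) or without V-OE replicate 2 (0.052 and 0.159). Sfrp2 fell in Rxrα-OE, from 18.8 ± 1.98 to 9.79 ± 0.26 CPM.

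Inside the cell, Axin2 was at 13.8 and 15.9 CPM in V-OE, 25.5 and 25.6 in Rarα-OE and 50.6 and 50.6 in Rxrα-OE. It rose by 0.78 ± 0.12 and 1.76 ± 0.11 on the log2 scale (edgeR, adjusted p = 6.5e-07 and 1.2e-20), and the lines differed by 0.98 ± 0.10 (adjusted p = 3.1e-12). Ctnnb1 was at 736 and 757 CPM in V-OE, 746 and 753 in Rarα-OE and 1271 and 1294 in Rxrα-OE. Only Rxrα-OE stood apart, at 0.78 ± 0.037 on the log2 scale (edgeR, adjusted p = 8.2e-26). Of exon bases 15.1% of Ctnnb1, 17.8% of Fzd5, 16.1% of Sfrp2 and 13.7% of Lef1 overlap exons of other genes, and those reads too cannot be told apart.

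Of the other intracellular members, Tcf7 and Tcf7l1 rose in Rxrα-OE (0.42 ± 0.075 and 0.32 ± 0.063), with Tcf7l1 at 162.9 and 157.4 CPM in V-OE and 207.4 and 194.1 in Rxrα-OE. Tcf7l2 fell (-0.31 ± 0.13), a call lost with DESeq2, with library totals, without the filter and without any of 3 libraries (adjusted p up to 0.211). Apc fell by 0.22 ± 0.062, a call lost with library totals (0.084) and without V-OE replicate 2 (0.156). Znrf3, a ubiquitin ligase that removes Frizzled receptors from the surface, fell from 25.8 ± 4.03 to 16.7 ± 0.68 CPM. Axin1, the constitutive relative of Axin2, was at 101.1 ± 0.50, 103.6 ± 2.44 and 105.1 ± 1.71 CPM and was not called.

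Markers moved with these groups. The naive list summed to 6409 to 6569 CPM in V-OE, 5259 to 5318 in Rarα-OE and 2074 to 2101 in Rxrα-OE. Extraembryonic endoderm markers summed to 245.9 to 250, 946 to 947 and 1161 to 1173, and trophectoderm markers to 101 to 102, 576 to 625 and 661 to 691, with the placental marker Tpbpa at 0 in all groups. Mesoderm and primitive streak markers summed to 24.7 to 24.8 CPM in V-OE, 27.8 to 30.8 in Rarα-OE and 24.8 to 24.9 in Rxrα-OE. Neuroectoderm markers summed to 71.9 to 82.3, 39.6 to 46.3 and 29.4 to 31.3, and fibroblast markers to 170 to 171, 215 to 225 and 228 to 235, with Postn and Lum at 0 in all groups. The part of these cell states in the Wnt results was not tested.

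**Figure D4:**
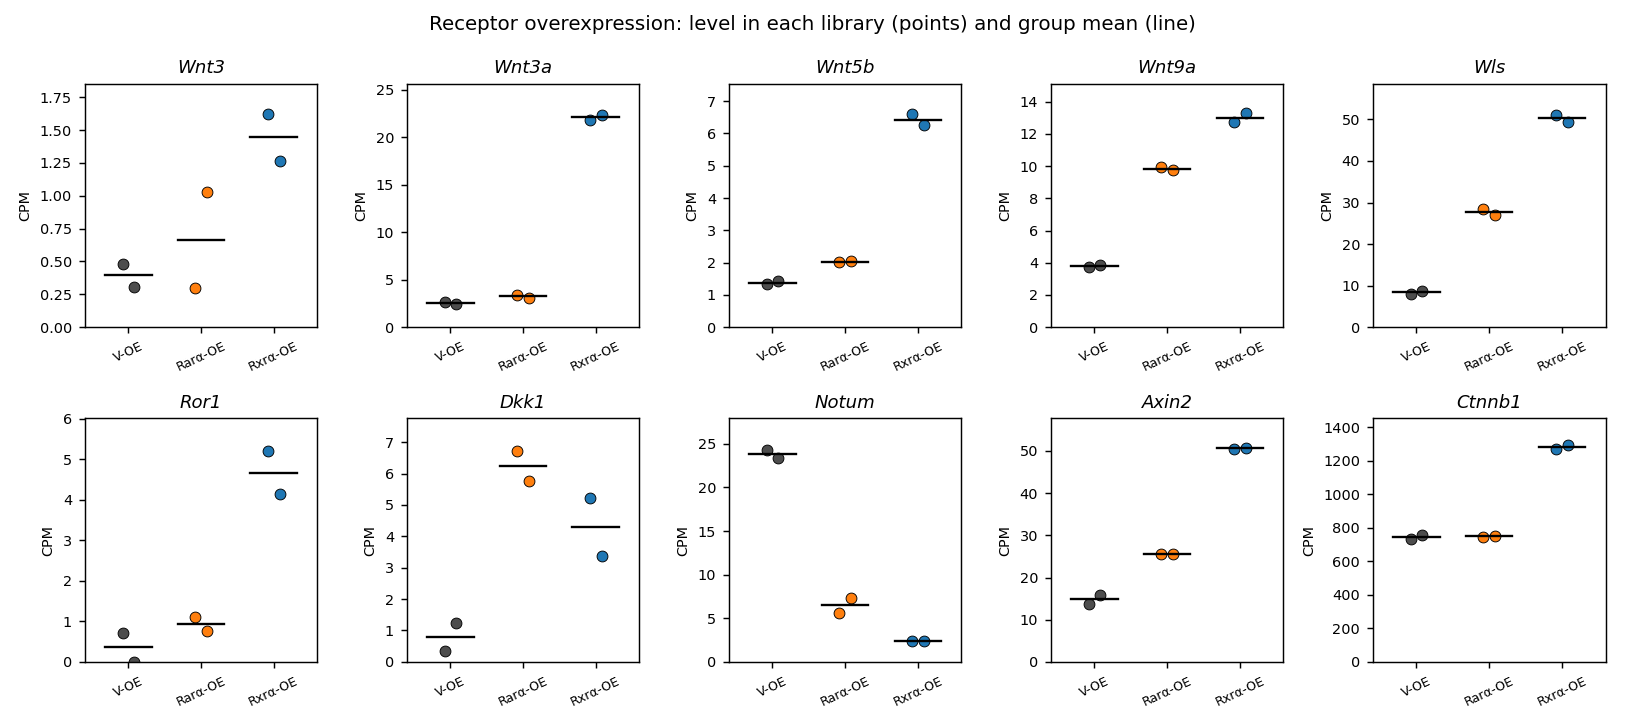
CPM of 10 Wnt pathway genes in the 2 libraries (points) and mean (line) of V-OE, Rarα-OE and Rxrα-OE. Wls and Axin2 rise in steps and Notum falls in steps across the groups, while Wnt3a (21.9 and 22.3 CPM) and Ctnnb1 (1271 and 1294 CPM) are high only in Rxrα-OE.

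Porcn and Sfrp5 were lower in both enhancer deletions, at less than 0.5 of their WT level, and Sfrp5 was lower still in Cyp26-E1-KO. In Cyp26-E1-KO against WT 13 of 48 tested members passed, 7 higher and 6 lower, where 25.3% of all genes did (13.1% higher and 12.1% lower). In Cyp26-E2-KO 10 passed, 3 higher and 7 lower, where 17.5% did (9.28% higher and 8.2% lower). The deletions differed in 8 members, 3 higher and 5 lower in Cyp26-E2-KO, where 4.49% of all genes did (2.02% higher and 2.46% lower). Median log2 fold changes of the members were 0.098 and 0.040 against WT, beside -0.0082 and 0.00011 over all genes. Cyp26a1, whose product degrades RA, was at 368 to 385 CPM in WT, 33.8 to 58.8 in Cyp26-E1-KO and 363 to 391 in Cyp26-E2-KO.

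Porcn was at 168.7, 171.5 and 147.3 CPM in WT, 68.9, 60.6 and 70.0 in Cyp26-E1-KO and 70.0, 68.1 and 69.6 in Cyp26-E2-KO. Both deletions lay far below all WT libraries and overlapped each other. The log2 fold changes were -1.29 ± 0.077 and -1.23 ± 0.077 (edgeR, adjusted p = 7.8e-08 and 3.4e-07), and genes within 10 Mb on the X chromosome had medians of 0.0055 and -0.095. Without Cyp26-E1-KO replicate 2 both were -1.23 and -1.22 and passed.

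Sfrp5 was at 50.1, 50.9 and 52.1 CPM in WT, 14.2, 11.8 and 13.5 in Cyp26-E1-KO and 22.4, 21.5 and 20.7 in Cyp26-E2-KO. The 3 groups were in order and did not overlap. Its log2 fold changes were -1.96 ± 0.092 and -1.25 ± 0.089 against WT (edgeR, adjusted p = 1.0e-08 and 8.4e-07), and 0.71 ± 0.092 for Cyp26-E2-KO against Cyp26-E1-KO (adjusted p = 0.00055). All 3 calls remained with each library left out. Sfrp5 lies on chromosome 19, as does Cyp26a1, and genes within 10 Mb of Sfrp5 had median log2 fold changes of 0.016 and -0.018 against WT.

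The other secreted inhibitors moved less evenly. Sfrp2 fell in both deletions, from 18.1 ± 1.84 CPM to 8.87 ± 2.16 and 10.7 ± 1.084 (SD, n = 3 each; edgeR, adjusted p = 0.00032 and 0.0045), and Sfrp1 rose in Cyp26-E1-KO from 31.3 ± 1.00 to 39.1 ± 1.73. Frzb was at 0.0648, 0 and 0.0667 CPM in WT (2, 0 and 2 counts), 1.04, 0.353 and 0.141 in Cyp26-E1-KO and 0.373, 0.0665 and 0.468 in Cyp26-E2-KO. The ratio of its summed counts in Cyp26-E1-KO to WT was 12.0 with a counting interval of 4.36 to 45.7, and the call was lost when Cyp26-E1-KO replicate 1 or any WT library was left out (adjusted p of 0.065 to 0.152). Dkk1 and Notum were not called against WT in either deletion, and Dkk1 was higher in Cyp26-E2-KO than in Cyp26-E1-KO (8.33 ± 0.91 and 5.53 ± 0.91 CPM; log2 difference 0.59 ± 0.15 (SE), edgeR, adjusted p = 0.045), a call lost when any of 8 libraries was left out, replicate 2 of Cyp26-E1-KO among them (adjusted p = 0.052).

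All 12 ligands were tested in this deeper table. Wnt7b, known from epithelia, was at 2.69, 2.26 and 3.04 CPM in WT, 6.64, 6.43 and 5.84 in Cyp26-E1-KO and 4.87, 5.62 and 4.39 in Cyp26-E2-KO. It was above WT in all 6 mutant libraries, by 1.24 ± 0.17 and 0.90 ± 0.17 on the log2 scale (edgeR, adjusted p = 0.00013 and 0.0027). Wnt8a, the leading ligand per kb, fell from 10.5 ± 0.17 CPM to 5.56 ± 1.04 in Cyp26-E1-KO (SD, n = 3 each; -0.92 ± 0.15 (SE), adjusted p = 0.00051) and was at 8.45 ± 0.97 in Cyp26-E2-KO; the difference between the deletions was 0.60 ± 0.15 (edgeR, adjusted p = 0.0385), which was lost when any of 7 libraries was left out (up to 0.167).

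Wnt6 was at 1.297, 1.46 and 1.74 CPM in WT, 2.77, 3.85 and 4.61 in Cyp26-E1-KO and 2.79, 1.33 and 1.46 in Cyp26-E2-KO, and rose in Cyp26-E1-KO by 1.32 ± 0.30 on the log2 scale (edgeR, adjusted p = 0.0052). Wnt7a was at 0.195, 0.0665 and 0.0667 CPM in WT, 0.553, 0.530 and 1.06 in Cyp26-E1-KO and 0.248, 0.299 and 0.936 in Cyp26-E2-KO. Its summed counts, 62 in Cyp26-E1-KO and 10 in WT, gave a ratio of 6.44 with a counting interval of 3.28 to 14.1. The call was lost without WT replicate 2 or 3 or Cyp26-E1-KO replicate 3 (adjusted p of 0.058 to 0.0585), and without Cyp26-E1-KO replicate 2 it also passed in Cyp26-E2-KO (edgeR, adjusted p = 0.021). Wnt4 was at 1.14, 1.76 and 1.70 CPM in WT, 0.846, 0.388 and 0.880 in Cyp26-E1-KO and 1.34, 2.195 and 1.40 in Cyp26-E2-KO. All Cyp26-E1-KO libraries were below WT (log2 fold change -1.11 ± 0.36, edgeR, adjusted p = 0.037), and the value without replicate 2 was -0.83 (adjusted p = 0.086), and that call was also lost without 3 other libraries (up to 0.122). Wnt5b rose in Cyp26-E2-KO by 0.90 ± 0.20 (edgeR, adjusted p = 0.0065). It lies on chromosome 6, whose genes had median log2 deviations of 0.0732 to 0.0839 in that line.

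Among the receptors Ror1 was at 2.63, 2.39 and 2.94 CPM in WT, 6.80, 5.26 and 4.96 in Cyp26-E1-KO and 2.79, 2.53 and 2.11 in Cyp26-E2-KO. Only Cyp26-E1-KO was higher, by 1.098 ± 0.19 on the log2 scale (edgeR, adjusted p = 0.00086), and the deletions differed by -1.20 ± 0.19 (adjusted p = 0.0031). In Cyp26-E2-KO, Fzd5, Fzd7 and Ror2 fell by 0.39 ± 0.080, 0.19 ± 0.061 and 0.37 ± 0.078 on the log2 scale (edgeR, adjusted p = 0.0036, 0.043 and 0.0046), the call on Fzd7 being lost when any of 7 libraries was left out. Fzd5, Fzd7 and Wls were also lower in Cyp26-E2-KO than in Cyp26-E1-KO (-0.33 ± 0.080, -0.32 ± 0.061 and -0.45 ± 0.11; edgeR, adjusted p = 0.029, 0.0087 and 0.037). Those calls were lost without any of 6 libraries for Fzd5 and for Wls (up to 0.127 and 0.163) and without Cyp26-E2-KO replicate 3 for Fzd7 (0.063).

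Axin2 was at 37.9, 40.7 and 38.0 CPM in WT, 59.2, 53.5 and 64.8 in Cyp26-E1-KO and 47.3, 45.4 and 44.6 in Cyp26-E2-KO. The groups did not overlap, and the rise passed in Cyp26-E1-KO (0.61 ± 0.081, edgeR, adjusted p = 8.6e-05), while the deletions differed by -0.37 ± 0.081 (adjusted p = 0.019; up to 0.106 without any of 4 libraries). In Cyp26-E2-KO the rise did not pass (0.24 ± 0.081, adjusted p = 0.061). Ctnnb1 was at 626, 642 and 650 CPM in WT and between 641 and 685 in the 6 mutant libraries, and was not called. Tcf7l2 fell in both deletions (-0.58 ± 0.12 and -0.39 ± 0.12, adjusted p = 0.0031 and 0.042), the latter call being lost without any of 6 libraries (up to 0.173), and Lef1 rose in Cyp26-E2-KO from 5.33 ± 0.41 to 8.03 ± 0.49 CPM (SD, n = 3 each; 0.59 ± 0.14 (SE), edgeR, adjusted p = 0.0093; 0.052 without Cyp26-E2-KO replicate 3). Tcf7l1 was at 86.8, 89.2 and 80.7 CPM in WT and between 82.9 and 91.6 in the mutants.

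Without Cyp26-E1-KO replicate 2 the counts of called members were 14 for Cyp26-E1-KO, 15 for Cyp26-E2-KO and 12 between the deletions, and 12 of 13, 10 of 10 and 7 of 8 of the calls made with it remained. Over all genes the calls also rose in number, from 4741 to 6217, from 3280 to 5776 and from 842 to 1852. Marker lists moved as well: mesoderm and primitive streak markers summed to 29.4 to 33.6 CPM in WT, 63.7 to 68.3 in Cyp26-E1-KO and 58.3 to 61.5 in Cyp26-E2-KO, and extraembryonic endoderm markers to 743 to 776, 842 to 917 and 967 to 977, with the mesoderm gene Msgn1 at 0 in all groups. Fibroblast markers summed to 255 to 280, 390 to 416 and 357 to 380, and Lum was at 0 in WT and Cyp26-E1-KO. Naive markers summed to 2201 to 2250, 1869 to 2025 and 1790 to 1902, and trophectoderm markers to 82.5 to 87.8, 119.5 to 124.6 and 87.4 to 103.5. Their part in the Wnt results was not tested.

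**Figure D5:**
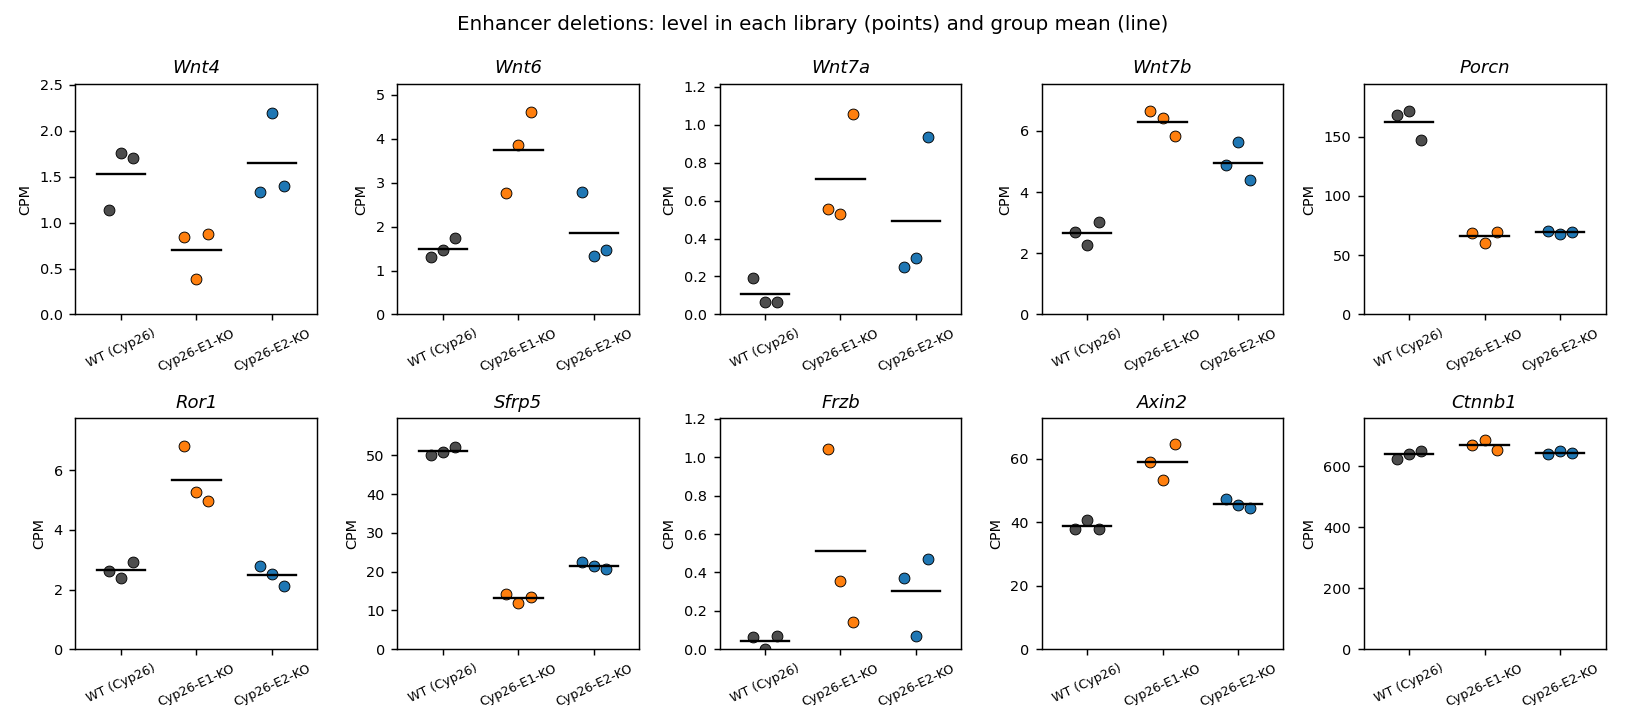
CPM of 10 Wnt pathway genes in the 3 libraries (points) and mean (line) of each of the 3 groups of the enhancer table. Porcn lies between 60.6 and 70.0 CPM in both deletions, Sfrp5 lies lowest in Cyp26-E1-KO, Ror1 and Wnt6 are high in Cyp26-E1-KO, and Ctnnb1 stays between 626 and 685 CPM throughout.

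Porcn, Axin2 and Sfrp5 can be set side by side over the perturbations in which they passed. Porcn was lower than control in Rxrα-KO (-0.96), Rxrα-OE (-0.79), Cyp26-E1-KO (-1.29) and Cyp26-E2-KO (-1.23), each past the threshold. Its values in Rarα-KO (0.57), RARX-DKO (0.28) and Rarα-OE (0.024) were positive and did not pass. Axin2 was higher in Rxrα-KO (1.09), Rarα-OE (0.78), Rxrα-OE (1.76) and Cyp26-E1-KO (0.61). Sfrp5 was lower in Rxrα-KO (-1.34), RARX-DKO (-1.68), Cyp26-E1-KO (-1.96) and Cyp26-E2-KO (-1.25) and higher in Rarα-OE (0.55) and Rxrα-OE (0.39). The calls in Rxrα-KO on Porcn, Axin2 and Sfrp5 were each lost without any of 3 libraries (edgeR, adjusted p up to 0.177, 0.237 and 0.299), that on Sfrp5 in RARX-DKO without either WT library (up to 0.17), and those on Sfrp5 under overexpression without 1 and 2 libraries (up to 0.052 and 0.212). The control libraries are shared within each table.

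Of 89 other pathway genes, chosen as further ligands, inhibitors, receptors, relay proteins, nuclear cofactors and commonly used targets, 72 were tested in the knockout table, 75 in the overexpression table and 76 in the enhancer table. None passed in Rarα-KO (edgeR; 12 at an unadjusted p under 0.05), 2 rose and 3 fell in Rxrα-KO, and 3 fell in RARX-DKO. In Rarα-OE 30 rose and 10 fell, in Rxrα-OE 39 rose and 17 fell, in Cyp26-E1-KO 21 rose and 10 fell, and in Cyp26-E2-KO 9 rose and 11 fell. The shares called were 6.94% in Rxrα-KO, 4.17% in RARX-DKO, 53.3% in Rarα-OE, 74.7% in Rxrα-OE, 40.8% in Cyp26-E1-KO and 26.3% in Cyp26-E2-KO, beside 2.47%, 2.24%, 28.6%, 60.2%, 25.3% and 17.5% of all genes.

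The commonly used targets did not move one way. In Rxrα-KO Gbx2 rose from 24.7 to 78.9 CPM (mean of 2; log2 fold change 1.67 ± 0.20, edgeR, adjusted p = 0.0014) and Bmp4 from 15.6 to 42.7, while Cdx1, a posterior homeobox gene, fell from 129.7 to 33.3 (-1.96 ± 0.19, adjusted p = 0.00038). In Rxrα-OE Cdx2, a posterior and trophectoderm homeobox gene, rose from 0.627 to 17.0 CPM (4.77 ± 0.30, edgeR, adjusted p = 4.4e-20), and Myc fell from 55.4 to 5.23 (-3.39 ± 0.13, adjusted p = 4.1e-30) and Esrrb, a naive factor repressed by Tcf7l1, from 695 to 109 (-2.67 ± 0.045, adjusted p = 2.7e-46). Of 21 targets tested in the knockout table, 2 were called higher and 3 lower in Rxrα-KO (1.28% and 1.2% of all genes were), 0 and 2 in RARX-DKO (1.05% and 1.19%) and none in Rarα-KO (edgeR; 4 at an unadjusted p under 0.05). Of 21 in the overexpression table, 10 were called higher and 6 lower in Rarα-OE (14.7% and 13.9% of all genes) and 9 and 7 in Rxrα-OE (30.9% and 29.3%). Of 23 in the enhancer table, 9 and 3 were called in Cyp26-E1-KO (13.1% and 12.1%) and 5 and 3 in Cyp26-E2-KO (9.28% and 8.2%).

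Further ligands and inhibitors outside the 50 added to the changes under overexpression and enhancer loss. The inhibitor Wif1 had 0 counts in V-OE and 54 in Rxrα-OE, at least 15.9-fold higher by a floor of 3 counts over the V-OE group, and Wnt2 had 2 and 64 counts, a ratio of 28.3 with a counting interval of 7.51 to 238. Sfrp4 fell from 3.62 to 0.527 CPM (-2.73 ± 0.46, edgeR, adjusted p = 9.1e-07). In Cyp26-E1-KO the R-spondin Rspo2 rose from 0.240 to 1.34 CPM (2.46 ± 0.56, edgeR, adjusted p = 0.0049), and the membrane inhibitor Apcdd1 and Id2 rose from 6.26 to 17.8 and from 29.9 to 81.8. Apcdd1 also rose in Cyp26-E2-KO, to 12.8 CPM, beside Msx1 and Twist1, genes of neural crest and mesenchyme. Counting intervals cover counting error only.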

How the data were processed

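RNA from 23 libraries of E14 cells was measured. The deposited tables hold raw counts per gene, made by the authors; the submitters' processing notes name HISAT2 2.1.0, HTSeq 0.9.1, DESeq2 1.18.1 and mm10, without role or order. Whether counting used strand is not given in the sources used here. Contact maps (32 libraries) and 20 chromatin and input samples were not used here.

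Each table was fitted once, with all its groups, by edgeR 4.0.16 (R 4.3.3; TMM, filterByExpr with a minimum count of 10, robust quasi-likelihood test), with Benjamini-Hochberg adjustment over all genes tested and a threshold of 0.05. Standard errors were derived from the log2 fold change and its F statistic. Exon lengths and overlaps come from GENCODE vM21 (mm10). The code was tested on simulated data. Of simulated 2-fold changes 48.5% were recovered in Rarα-KO against WT, 77.8% in Rarα-OE against V-OE and 62.5% in Cyp26-E1-KO against WT. Of simulated 4-fold changes 82.8%, 91.9% and 91% were. Calls on unchanged genes were 15 of 145, 12 of 180 and 11 of 162.

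Alternatives were DESeq2 1.42.0, library totals, no filter, a replicate block, only the groups compared, and leaving out each library. The members, lists, tests and named genes were chosen with earlier results of these data known. By the naming rule every called member is named, with values per library for up to 8 per table with the largest change and for Porcn, Axin2, Ctnnb1 and Tcf7l1, the latter 4 added beyond it; other pathway genes number up to 3 per direction and comparison. In the enhancer table the columns coded Ac and b were read as Cyp26-E1-KO and Cyp26-E2-KO, which is unsure.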

Additional observations from a re-analysis of the deposited data

Results flagged for a closer look

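For some members the groups of 2 perturbations lay on opposite sides of the shared control, with neither group overlapping it, and differed from each other in a direct test that passed (edgeR, adjusted over all genes tested). Values are log2 differences, and no explanation was tested. The rule was applied to the members only, so how often other genes meet it is not known, and the list shows no trait of Wnt genes. Between Rxrα-KO and Rarα-KO they were -1.53 for Porcn, 0.87 for Fzd7, -1.01 for Sfrp2, 2.83 for Dkk1 and -3.0 for Dkk3. Between RARX-DKO and Rxrα-KO they were 1.24 for Porcn, -0.95 for Fzd7, 0.67 for Sfrp1 and 2.94 for Dkk3. Of these 9, the single effect against WT passed for Porcn in Rxrα-KO only. Between Rxrα-OE and Rarα-OE they were -1.69 for Wnt7b, -0.81 for Porcn, -0.55 for Fzd7, 1.04 for Rspo1 and -0.59 for Tcf7l2. Fzd7 and Rspo1 passed against V-OE in both lines, and Wnt7b, Porcn and Tcf7l2 in Rxrα-OE only, Porcn in Rarα-OE being at 0.024 (adjusted p = 0.741). Between Cyp26-E2-KO and Cyp26-E1-KO they were -0.45 for Wls and -0.32 for Fzd7. Against WT, Wls passed in neither (adjusted p = 0.076 and 0.38 in Cyp26-E1-KO and Cyp26-E2-KO) and Fzd7 in Cyp26-E2-KO only.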

How the results depend on the processing

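No called member reversed its direction under any alternative, and most values that were not called were not checked for this. Counts of called members moved by over 1.5 times in the cases below. Rarα-KO against WT, 0 as reported, gave 2 with DESeq2, 4 with no filter on low counts and 5 with only the groups compared. Over all genes it gave 257, 551 and 588, beside 106 as reported. With no filter Rxrα-KO gave 6, RARX-DKO 8, RARX-DKO against Rarα-KO 1 and RARX-DKO against Rxrα-KO 9. Over all genes these gave 1084, 981, 58 and 1366, beside 407, 368, 2 and 575 as reported. With only the groups compared, RARX-DKO against Rxrα-KO gave 0 and Cyp26-E2-KO against Cyp26-E1-KO 2. Over all genes these gave 30 and 339, beside 575 and 842. Counts over all genes thus moved the same way as those of members, and the cause was not tested. With each library left out in turn the counts ran from 0 to 1 in Rarα-KO, 0 to 4 in Rxrα-KO, 0 to 5 in RARX-DKO, 0 to 0 in RARX-DKO against Rarα-KO, 1 to 5 in RARX-DKO against Rxrα-KO, 1 to 7 in Rxrα-KO against Rarα-KO, 0 to 0 for the departure from the sum, 13 to 18 in Rarα-OE, 28 to 36 in Rxrα-OE, 23 to 29 between these, 10 to 14 in Cyp26-E1-KO, 7 to 15 in Cyp26-E2-KO and 2 to 12 between the deletions. Calls over all genes also varied in number with the library left out. Of the values of called members under alternatives, 1319 kept their call and 204 fell short of the threshold. For same-numbered libraries of different groups, the deviations from their own group means correlated over genes at -0.21 to 0.12 in the knockout table. The values were -0.014 to 0.0066 under overexpression and -0.056 to 0.11 in the enhancer table, so the numbers were not taken to pair the samples. A replicate block gave 2 called members in RARX-DKO, 4 in RARX-DKO against Rxrα-KO, 5 in Rxrα-KO against Rarα-KO and 9 between the deletions, beside 3, 5, 6 and 8 without it, and the reported count in the other 9 comparisons.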
